A study of Rattus norvegicus with 4 samples.

Results

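On 4 Affymetrix rat arrays of embryonic telencephalon, 102 probe sets separated both replicate 2 arrays from both replicate 1 arrays, in the wild type and in the Pax6 mutant alike. They were chosen by the replicate contrast itself. A probe set other than an array control entered when its mean over the 4 arrays was at least 3.21 on the log2 scale and when each replicate 2 array differed from each replicate 1 array in the same direction by at least 0.8 in all 4 pairings. Of 31042 probe sets that are not controls, 18625 reached that mean, and 102 of these (0.548%) met the difference. In 69 of them the replicate 2 arrays were higher (0.37% of the tested probe sets), and in 33 they were lower (0.177%). Since the replicate difference chose the members, it is given for them as a description with no test.

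The arrays compare telencephalon of wild-type rats with that of rSey2/rSey2 rats, which are homozygous for a mutant allele of Pax6, both on the Sprague-Dawley background and taken at E11.5, with midday of the plug counted as E0.5. There were 2 arrays per genotype, numbered 1 and 2 in each. The design text speaks of 13 telencephalons, which points to pooled embryos, but whether each array had its own pool is not settled. The labels name neither litters nor sexes nor somite stages. The replicate numbers are names and carry no order, and nothing in the labels ties wild-type array 2 to mutant array 2. P-values measure only the spread between these arrays, which may be technical in part. Where replicate 2 is compared with replicate 1, each side holds both genotypes, so genotype differences are part of that spread. Values are GCRMA summaries on the log2 scale, so a difference of 1 corresponds to a doubling of the estimated signal. In whole tissue, fewer cells of a type and less RNA per cell cannot be told apart.

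The telencephalon is the front of the neural tube and gives rise to the cerebral cortex and the basal ganglia. At this age its wall is a neuroepithelium of dividing progenitors, surrounded by surface ectoderm and mesenchyme and entered by the first vessels. Pax6 is a paired-box and homeobox transcription factor that patterns the dorsal telencephalon and the eye. Embryos of a litter differ in developmental stage, and transcripts of patterning, neurogenesis and the cell cycle move with stage, while immediate early and heat shock genes respond quickly when tissue is cut and held. An Affymetrix probe set is a group of short probes against a stretch of a transcript, mostly near the 3' end, and a gene can have several probe sets against different exons, 3' ends or introns retained in some transcripts.

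Checks of the labels gave the following. Lhx2 and Emx2, transcription factors of the telencephalic neuroepithelium, stood between 13.01 and 13.42 and between 10.45 and 10.59 on the 4 arrays. Fabp7, a brain lipid carrier whose expression needs Pax6, read 11.83 and 12.15 in wild type against 4.89 and 4.56 in the mutant, which goes with the genotype labels (difference -7.26, SE 0.19, limma's Benjamini-Hochberg adjusted p 0.196). Pax6 itself read 11.75 and 11.85 in wild type and 11.78 and 11.63 in the mutant, a level that does not check the labels. The medians of the tested probe sets were 8.24 and 8.33 in wild-type arrays 1 and 2, and 8.22 and 8.35 in mutant arrays 1 and 2. The median replicate difference of all tested probe sets was 0.06, and 61.6% of them had a difference above 0.

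The promoters of 4 members are shown, as bases before the annotated start, because a gene has 1 annotated promoter in the table while its probe sets read different parts of its transcripts. Lrrfip1 and Knl1 head the higher and the lower members, and Crebbp and Slbp are members whose genes also had other probe sets that differed less, or in the opposite direction. The sequences are RefSeq's for the GRCr8 build, 250 bases each, 5' to 3' on the gene's strand. Capitals mark a CCAAT box, a TATAAA box or a GGGCGG box on either strand. They mark letters at any distance from the start, and whether the annotated start is used in this tissue was not tested.

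Lrrfip1 promoter, chr9:99090600-99090849, + strand: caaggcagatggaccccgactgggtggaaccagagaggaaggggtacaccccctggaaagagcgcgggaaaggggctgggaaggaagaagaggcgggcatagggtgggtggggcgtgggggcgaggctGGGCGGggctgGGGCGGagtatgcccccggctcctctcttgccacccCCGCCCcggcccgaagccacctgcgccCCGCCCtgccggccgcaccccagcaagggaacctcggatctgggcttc

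Crebbp promoter, chr10:11842090-11842339, + strand: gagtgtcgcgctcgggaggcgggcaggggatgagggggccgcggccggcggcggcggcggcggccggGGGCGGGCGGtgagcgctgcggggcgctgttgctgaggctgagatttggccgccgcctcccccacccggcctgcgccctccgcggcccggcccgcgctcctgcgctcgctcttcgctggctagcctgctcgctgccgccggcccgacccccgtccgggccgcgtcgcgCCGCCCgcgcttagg

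Knl1 promoter, chr3:126490716-126490965, + strand: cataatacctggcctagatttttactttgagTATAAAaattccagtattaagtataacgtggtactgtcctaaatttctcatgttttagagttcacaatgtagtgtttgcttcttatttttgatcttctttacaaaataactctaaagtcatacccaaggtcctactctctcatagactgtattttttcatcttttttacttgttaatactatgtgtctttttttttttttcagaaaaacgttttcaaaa

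Slbp promoter, chr14:81295998-81296247, + strand: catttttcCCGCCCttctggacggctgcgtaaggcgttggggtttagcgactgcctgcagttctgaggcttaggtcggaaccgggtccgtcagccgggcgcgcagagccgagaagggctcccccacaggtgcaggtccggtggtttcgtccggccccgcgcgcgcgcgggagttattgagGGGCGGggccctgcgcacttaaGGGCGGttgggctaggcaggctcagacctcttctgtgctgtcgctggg

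Among the named genes, 41 of 47 with higher members and 19 of 20 with lower members had a promoter in the RefSeq table. The GC content of the 250 bases had a median of 61.6% for the higher genes and 60.4% for the lower genes, against 60.8% over 8268 tested named genes. The single promoters ranged widely, from 36.0% to 82.0% among the higher and from 28.4% to 72.0% among the lower genes. A CCAAT box on either strand was in 41.5% of the higher and 36.8% of the lower promoters, against 36.2% of the tested genes and 34.3% of all 27457 promoters. TATAAA on either strand was in 9.76% and 5.26%, against 5.78% and 13.1%. GGGCGG on either strand was in 53.7% and 57.9%, against 61.6% of the tested genes and 32.4% of all promoters. Both sets therefore read close to the tested genes in these letters. The unnamed members are not in these shares.

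The higher members were dim for the most part. Their mean level over the 4 arrays ran from 3.46 to 9.88 with a median of 5.78, against a median of 8.28 over all tested probe sets, and 21 of the 69 lay under 5 (13.9% of all tested probe sets do). The lower members ran up to 11.07 with a median of 7.69, and 7 of 33 lay under 5. The mean replicate difference of the higher members ran from 0.84 to 2.0 (median 1.16), and that of the lower members from -2.28 to -0.90 (median -1.09). A mean difference of at least 1 was reached by 61 higher and 23 lower members, and in 27 and 13 of them even the nearest pairing was at least 1 apart. At the edge of the rule, Akap1 was just inside with a nearest pairing of 0.8035 and Nid1 just outside with 0.7999. Among the lower probe sets an unnamed one was just inside at 0.8029 and Atp8b2 just outside at 0.7974.

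The balance of higher and lower members depended on how the arrays are scaled against each other. After quantile normalization of the deposited values 42 probe sets met the rule as higher and 56 as lower, and after centring each array on its median 40 and 71 did. Centring moved the median replicate difference of all tested probe sets by -0.12, from 0.06 to -0.05. All 69 higher members stayed above 0 and all 33 lower members below 0 under both scalings. All 33 lower members also still met the rule. For centring the selection fixed both outcomes beforehand, since centring shifted every pairing downward, by far less than the difference that the rule requires. For quantile normalization they describe members chosen on the same values before scaling. Nothing is read from these outcomes.

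**Figure D1:**
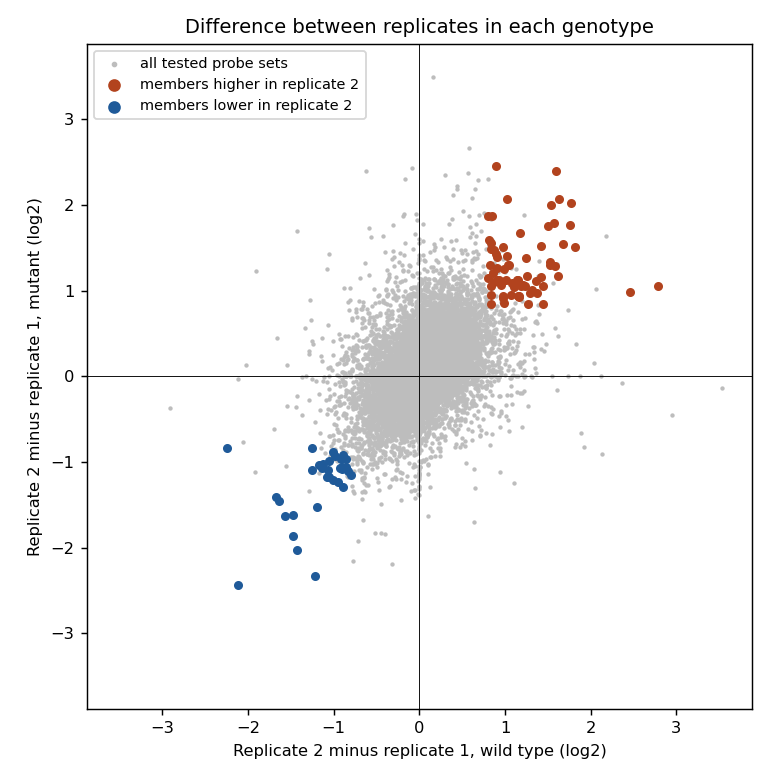
Replicate 2 minus replicate 1 (log2) in the wild type on the horizontal axis and in the mutant on the vertical axis. Grey points are the 18625 tested probe sets, red points the 69 higher members and blue points the 33 lower members, which lie in the corners by the way they were chosen.

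Leading the higher members was Lrrfip1, an RNA- and DNA-binding protein that interacts with Flightless (probe set 1385155_at). It read 4.07 and 3.75 in wild-type and mutant array 1, and 5.84 and 5.77 in wild-type and mutant array 2. Both replicate 2 values stood at least 1.70 above both replicate 1 values, and mutant minus wild type was -0.20 (SE 1.06). Pdpr, a regulatory subunit of the phosphatase that activates pyruvate dehydrogenase, read 3.56 and 3.57 against 5.15 and 5.97. Abhd2, a lipase of the alpha/beta hydrolase fold, read 3.45 and 3.51 against 4.98 and 5.51. In each of the 3 the wild-type and mutant values of replicate 1 lay closer together than either did to a replicate 2 value.

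Prrc2c, a proline-rich protein of stress granules, was the 1 gene with a pair of members. Its first probe set read 5.80 and 5.96 in the replicate 1 arrays and 7.44 and 8.03 in the replicate 2 arrays. The other, 1394964_at, read 5.23 and 5.20 against 6.38 and 6.32. Both were higher in replicate 2, by 1.85 and 1.13 on average.

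Several higher members encode chromatin and transcription proteins. Crebbp, the histone acetyltransferase and coactivator CBP, read 4.38 and 4.09 in the replicate 1 arrays of wild type and mutant, and 5.55 and 5.76 in the replicate 2 arrays. Ints6, a subunit of the Integrator complex that processes small nuclear RNAs, read 3.79 and 4.16 against 5.31 and 5.49. Atrx, a chromatin remodeller encoded on the X chromosome, read 7.39 and 7.22 against 8.30 and 8.34. Ash1l, a histone methyltransferase, read 6.92 and 6.76 against 7.78 and 7.98. In each of these 4 the values of the 2 genotypes lay closer to each other than the values of the 2 replicates did. Prdm2, a PR-domain zinc-finger protein, read 5.79 and 5.15 against 6.62 and 6.72. Mllt1, a subunit of the super elongation complex, read 5.01 and 4.73 against 6.10 and 5.82. Fbxl19, an F-box protein that binds CpG islands, read 5.77 and 5.68 against 6.72 and 6.75. Zfp445, a zinc-finger protein that maintains imprints, read 8.20 and 8.02 against 9.29 and 9.06. Arid3a and Zfp57, both DNA-binding proteins, had mean replicate differences of 1.09 and 0.94. Klf2, a zinc-finger factor of endothelium that is induced by flow and by growth signals, read 4.10 and 4.84 against 5.76 and 6.38, and its mutant minus wild type of 0.68 (SE 0.89) was the highest among the higher members.

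Receptors and signalling proteins were also among the higher members. Unc5b, a netrin receptor, read 4.23 and 4.14 in the replicate 1 arrays and 5.48 and 5.31 in the replicate 2 arrays. Fzd5, a Wnt receptor of the forebrain and eye, read 4.07 in both replicate 1 arrays and 5.01 and 5.21 in the replicate 2 arrays. Nlk, a kinase of the Wnt and Notch pathways, read 5.30 and 5.01 against 6.15 and 6.88. Keap1, the adaptor that targets Nrf2 for degradation, read 6.20 and 6.26 against 7.19 and 7.51. Each of these separated by replicate with no overlap, as the rule demands, and none had a genotype difference beyond 0.23.

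The other named higher members have varied roles. Ckap4, an endoplasmic reticulum sheet protein, was among the brighter members and read 8.76 and 8.57 against 9.79 and 9.87. Aggf1, an angiogenic factor, read 7.89 and 7.94 against 9.0 and 9.04, with a mutant minus wild type of 0.05 (SE 0.61). Cln3, a lysosomal membrane protein, read 2.73 and 3.20 against 4.26 and 4.50, with both replicate 1 values under the dim level. Nek9, a mitotic kinase, read 4.12 and 4.91 against 6.89 and 5.96, and its difference of 2.78 in wild type was the largest of any member in a single genotype. Nrm, a protein of the inner nuclear membrane, read 6.91 and 7.10 against 8.14 and 8.15. Camsap1, which binds the minus ends of microtubules, was the brightest higher member, with 9.43 and 9.39 against 10.27 and 10.44. Its relative Camsap3 read 5.25 and 5.21 against 6.08 and 6.16. Fbxo10, an F-box protein, read 5.47 and 5.05 against 7.04 and 6.85, and Epm2aip1, a partner of laforin, read 2.89 and 2.91 against 4.51 and 4.08.

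Dpysl3, a collapsin response mediator of growing axons, read 3.74 and 3.16 against 4.76 and 5.23. Emc1, a subunit of the endoplasmic reticulum membrane complex, read 6.35 and 6.29 against 7.36 and 7.42. Among members with other probe sets, Akap1, a mitochondrial anchor of kinase A, read 6.28 and 5.29 against 7.08 and 7.16, and Homer1, a postsynaptic scaffold, read 3.90 and 4.04 against 4.89 and 4.90. Gbf1, an Arf exchange factor of the Golgi, read 4.33 and 4.82 against 5.75 and 5.98, and Atp7a, a copper transporter, read 4.73 and 4.74 against 5.89 and 5.67. Dgkh, a diacylglycerol kinase, read 3.37 and 3.21 against 4.56 and 4.27, and Usp6nl, an activator of Rab GTP hydrolysis, read 4.23 and 4.20 against 5.67 and 5.06. In Usp6nl and Gbf1 the larger difference was in wild type, and in Akap1 it was in the mutant. Ddx6, a helicase of mRNA decay, read 7.19 and 6.83 against 8.01 and 8.13, and Nktr, a cyclophilin-domain protein, read 7.32 and 6.80 against 8.18 and 8.27. Selenon, a selenoprotein of the endoplasmic reticulum, read 4.92 and 4.24 against 5.75 and 5.73, and Fam171a2 read 3.77 and 2.24 against 4.65 and 4.70, with 1 of its replicate 1 values under the dim level. The remaining named higher members, Paqr4, Klhl36, Tbc1d12, C6h14orf28, Zfp385a and Slc10a3, had mean replicate differences from 0.95 to 1.17.

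A further 21 of the 69 higher members (30.4%) were unnamed, against 23.7% of the tested probe sets. Of the 15 with the largest nearest pairing, 7 were unnamed. Probe set 1395261_at read 3.88 and 3.93 against 5.69 and 5.44, and 1391048_at read 2.65 and 2.65 against 4.15 and 4.4. Probe set 1380468_a_at read 3.16 and 2.80 against 4.91 and 4.57, and 1377377_at read 4.52 and 4.75 against 6.10 and 6.04. Both replicate 1 values of 1391048_at and of 1380468_a_at lay under the dim level. The other three of the 7 were 1379952_at with 4.07 and 3.84 against 5.31 and 5.22, 1378490_at with 4.49 and 4.10 against 5.91 and 5.61 and 1396839_at with 4.54 and 4.55 against 5.90 and 5.67.

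The lower members were led by Knl1, the kinetochore scaffold that recruits spindle checkpoint proteins (probe set 1395480_at). It read 8.09 and 8.23 in the replicate 1 arrays of wild type and mutant, and 5.97 and 5.79 in the replicate 2 arrays. The mean difference of -2.28 was the largest of all 102 members in either direction, and the genotypes differed by -0.02 (SE 1.27). Slbp, which binds the stem-loop of histone mRNAs and accumulates in S phase, read 10.60 and 11.04 against 9.17 and 9.01. Casp8ap2, a protein of histone gene expression and apoptosis also called FLASH, read 10.70 and 10.68 against 9.69 and 9.80. Cep295, a centriole protein, read 8.80 and 8.81 against 7.81 and 7.88. These 4, picked by function, encode proteins of cell division or histone mRNA and were lower in both replicate 2 arrays, by 0.94 to 2.28 on average. They were not tested as a group, and Nek9, a mitotic kinase, was higher by 1.91. The name of the Slbp probe set marks probes shared between transcripts. The other tested probe sets of Slbp and Casp8ap2 differed by 0.01 (SE 0.22) and 0.03 (SE 0.13), and those of Cep295 by -0.71 to 0.00.

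Chromatin proteins were present among the lower members too. Suz12, a core subunit of Polycomb repressive complex 2, read 11.49 and 11.74 in the replicate 1 arrays and 10.59 and 10.45 in the replicate 2 arrays. Mbtd1, a reader of methylated histones, read 10.21 and 10.28 against 9.14 and 9.19. Cdkn2aip, a regulator of the p53 pathway, read 9.81 and 9.86 against 8.75 and 8.69. Lrif1, an interactor of heterochromatin protein 1, read 7.49 and 7.06 against 5.23 and 6.22, with a larger difference in wild type (-2.25) than in the mutant (-0.84). Prpf4b, a kinase of the splicing machinery, read 9.34 and 9.25 against 8.08 and 8.41. For Mbtd1 and Cdkn2aip the 2 genotypes lay close together within each replicate.

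The other named lower members have varied roles as well. Tpm3, a tropomyosin, read 6.53 in both replicate 1 arrays and 5.05 and 4.67 in the replicate 2 arrays. Rab14, a GTPase of endosomes, read 5.0 and 5.71 against 3.79 and 3.38. Lrch2, a leucine-rich-repeat protein, read 8.48 and 8.52 against 6.81 and 7.10. Naa16, an auxiliary subunit of an N-terminal acetyltransferase, read 8.31 and 8.67 against 6.74 and 7.04. Col11a1, a fibrillar collagen chain, read 7.26 and 7.20 against 6.19 and 6.01, and Hmcn1, an extracellular hemicentin, read 7.76 and 7.66 against 6.84 and 6.70. Pik3ca, the catalytic subunit of phosphoinositide 3-kinase, read 9.38 and 9.43 against 8.55 and 8.33, and Rbms1, an RNA-binding protein, read 10.94 and 11.05 against 10.08 and 10.09. C18h18orf54 read 10.96 and 11.13 against 10.02 and 10.06, and Fam149a read 8.28 and 8.86 against 6.64 and 7.40. RT1-CE12, a class I histocompatibility gene, read 4.77 and 4.74 against 3.91 and 3.67, by a probe set whose name marks it as open to cross-hybridisation. Another 12 of the 33 were unnamed (36.4%), and 1 had several symbols.

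Among the 15 lower members with the largest nearest pairing, 5 unnamed ones and the one with several symbols ranged widely in level. Probe set 1384431_at read 6.38 and 6.53 against 4.91 and 4.91, and 1384179_at read 6.85 and 7.18 against 5.66 and 5.66. Probe set 1398246_s_at, the one with several symbols, read 4.50 and 4.34 against 3.24 and 3.24, and 1389077_at read 9.66 and 9.63 against 8.48 and 8.60. The last of them were 1382211_at with 6.0 and 6.17 against 5.06 and 4.94 and 1370745_at with 10.63 and 10.55 against 9.63 and 9.34. In each, both replicate 2 values lay below both replicate 1 values, as the rule demands.

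**Figure D2:**
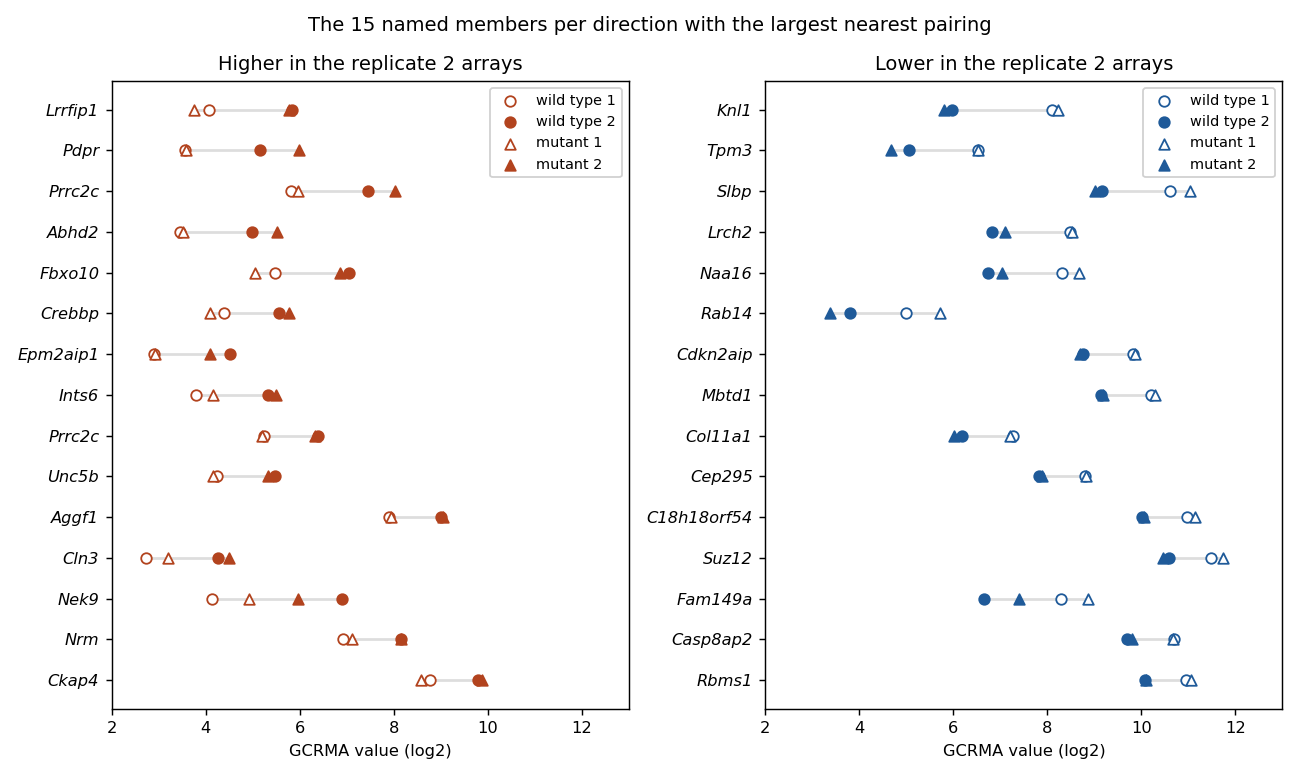
GCRMA values (log2, horizontal axis) of the 15 named members with the largest nearest pairing in each direction, 1 row per probe set. Open symbols are replicate 1 and filled symbols replicate 2, circles wild type and triangles mutant, and a grey line joins the lowest and the highest array. Filled and open symbols separate in every row, as chosen, and Prrc2c has 2 rows.

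The members' genotype differences are given as a description, since the rule limits them: every replicate 2 array must clear every replicate 1 array, and that gap enters the error of the genotype fit. Mutant minus wild type ran from -0.74 to 0.68 in the higher members (median -0.05) and from -0.21 to 0.66 in the lower members (median 0.05). Of the higher members 32 were higher in the mutant and 37 lower, and of the lower members 19 and 14. In limma's genotype fit 0 members had an unadjusted p under 0.05, against 3.65% of all tested probe sets, a count that the rule forces and from which nothing is read. No probe set of the array passed an adjusted p of 0.05 in that fit (0.0%), and 680 had an unadjusted p under 0.05. The replicate difference of the higher members had a median of 1.14 in wild type and 1.17 in the mutant, and 37 of 69 had the larger one in the mutant. Single members differed more, among them Nek9 with 2.78 in wild type and 1.05 in the mutant, and Fam171a2 with 0.89 and 2.46. In the lower members 22 of 33 had the larger one in the mutant.

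The replicate difference reached beyond the members. Over all tested probe sets, 33.4% had both replicate 2 arrays above both replicate 1 arrays and 15.6% had both below. In limma's fit of replicate 2 against replicate 1, with both genotypes as its arrays, 0 of 18625 probe sets passed an adjusted p of 0.05 (0.0%), and the lowest adjusted p was 0.196. An unadjusted p under 0.05 was reached by 3329, of which 12.6% of the tested probe sets were higher and 5.27% lower in replicate 2. These shares are the background for the counts that follow, and the members' own contrast chose them, so nothing is read from their p-values.

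Whether the other probe sets of the same genes moved was the comparison that the rule did not fix, apart from the fact that each fell short of it. The higher genes had 79 other probe sets, of which 8 were dim and 71 were tested, in 33 genes. Of these 71, 54 were higher in replicate 2 and 17 were not, beside 61.6% higher over all tested probe sets. In all 4 pairings 36 were higher and 9 lower, beside 33.4% and 15.6% over all tested probe sets. Unadjusted p was under 0.05 for 15 of the 71 in the direction of the member, and for 6 in the other. The background is 12.6% and 5.27%, and none passed the adjusted threshold. Their median difference was 0.17 (from -0.67 to 1.07), against 1.17 for the members and 0.06 over all tested probe sets. The members were chosen for a large difference and the others fell short of it, so part of this gap is built in. The others were also brighter, with a median level of 8.52 against 5.84 for the members, and for 57 of the 71 the member was dimmer. A mean difference of at least 0.8 in the member's direction was shown by 5 of the 71.

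The lower genes had 40 other probe sets, and 39 were tested, in 14 genes. Of these 39, 15 were lower in replicate 2 and 24 were not, close to the balance over all tested probe sets, of which 61.6% were higher. Unadjusted p was under 0.05 for 3 that were lower and 8 that were higher, the 8 all belonging to Tpm3. Their median difference was 0.03 (from -0.71 to 0.51), against -1.13 for the members, and 0 of the 39 reached -0.8. The median level was 8.85 for these probe sets and 7.79 for the members, and for 23 of the 39 the member was dimmer.  For the brightest other tested probe set of each gene, the replicate difference ran from -0.55 to 0.37 in the 33 higher genes (median 0.10, 21 in the member's direction) and from -0.36 to 0.31 in the 14 lower genes (median 0.01, 6 in the member's direction).

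**Figure D3:**
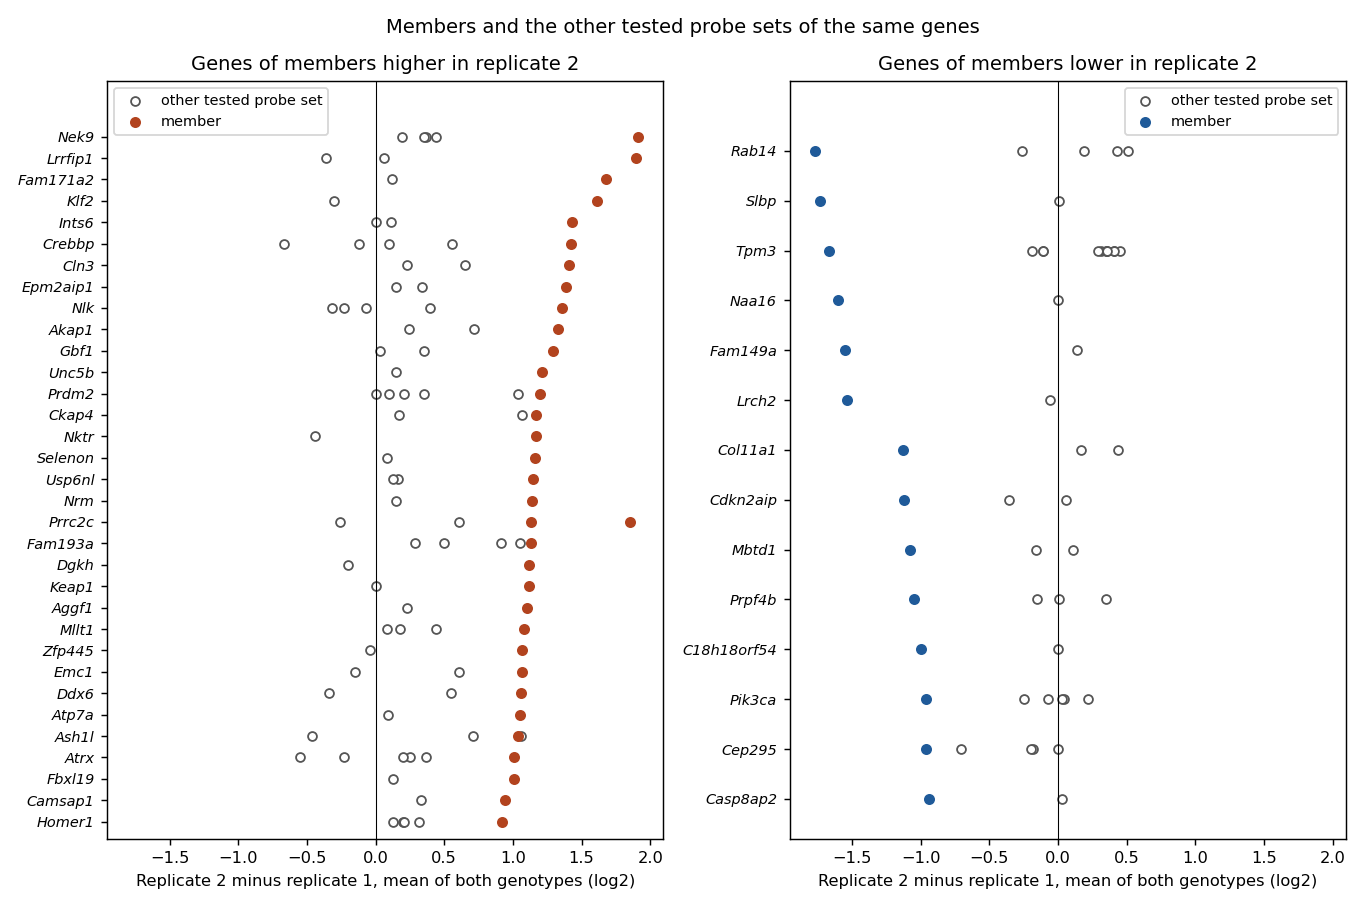
Replicate 2 minus replicate 1 (log2, mean of both genotypes) for each member (filled) and for each other tested probe set of its gene (open), 1 row per gene, for the 33 higher and the 14 lower genes that have any. The open points of the higher genes scatter around a median of 0.17 and those of the lower genes around 0.03, short of the members in nearly every row.

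In some genes every other probe set lay on the member's side. Fam193a had 4 others that were higher by 0.29 (SE 0.05), 0.50 (SE 0.15), 1.05 (SE 0.25) and 0.91 (SE 0.12), each in all 4 pairings. Its member 1393851_at read 5.79 and 6.10 in the replicate 1 arrays and 7.09 and 7.07 in the replicate 2 arrays, so all 5 probe sets of the gene were higher in replicate 2. Nek9 had 4 others that were higher in all 4 pairings, by 0.19 to 0.44, well short of the member's 1.91. Homer1 had 4 others higher in all 4 pairings by 0.13 to 0.32, against 0.92 for the member. Ckap4 had 1395342_at, which read 7.34 and 7.53 in the replicate 1 arrays and 8.26 and 8.75 in the replicate 2 arrays (difference 1.07, SE 0.21), and a further one at 0.17 (SE 0.10). Akap1 had others at 0.72 (SE 0.07) and 0.24 (SE 0.11). Unadjusted p was under 0.05 for all 4 others of Fam193a, for 2 of 4 of Nek9, and for 1 other each of Homer1, Ckap4 and Akap1, and none had a Benjamini-Hochberg adjusted p under 0.196 in limma's fit.

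In other genes the probe sets went apart. Crebbp had 1380027_at, which read 8.85 and 8.82 in the replicate 1 arrays and 8.14 and 8.18 in the replicate 2 arrays, a difference of -0.67 (SE 0.05), while the member was higher by 1.42. Its further probe sets differed by 0.56 (SE 0.10), 0.10 (SE 0.14) and -0.12 (SE 0.09). For Lrrfip1 the brightest probe set, 1389351_at, read 10.39 and 10.42 in replicate 1 and 10.05 and 10.03 in replicate 2, a difference of -0.36 (SE 0.05), and its other probe set differed by 0.06 (SE 0.10). Prrc2c had a probe set at 0.61 (SE 0.10) and its brightest at -0.26 (SE 0.06). Nktr, a cyclophilin of nuclear speckles, had its other probe set at -0.44 (SE 0.06) beside a member at 1.17. In these 4 genes the member and at least 1 other probe set differed in opposite directions between the replicates.

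Atrx and Ash1l each had other probe sets on both sides. The Atrx ones ran from -0.55 (SE 0.15) to 0.37 (SE 0.23), with 3 of 5 higher. Ash1l had 1.06 (SE 0.40), 0.71 (SE 0.42) and -0.46 (SE 0.15). The other tested probe set of Klf2 differed by -0.30 (SE 0.19) beside the member at 1.61, and 3 further ones were dim.

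Among the lower genes, Tpm3 had the most other probe sets. Its member 1387617_at differed by -1.67 on average, and 8 of its 11 other probe sets were higher in all 4 pairings, by 0.29 to 0.45, each at an unadjusted p under 0.05 and an adjusted p of at least 0.196. The remaining 3 ran from -0.19 to -0.11. Some of the 8 carry names that mark shared or cross-hybridising probes and so are not independent readings. The other tested probe set of Slbp read 6.56 and 7.08 in replicate 1 and 6.74 and 6.92 in replicate 2, a difference of 0.01 (SE 0.22) beside the member's -1.73. Rab14 had others at 0.51 (SE 0.20), 0.43 (SE 0.19), 0.19 (SE 0.12) and -0.26 (SE 0.10). The 5 others of Pik3ca ran from -0.25 to 0.22. Of Cep295, 1394697_at read 7.27 and 6.85 against 6.44 and 6.25 (difference -0.71, SE 0.19), and 3 further ones stood between -0.20 and 0.00. Knl1, the leading lower member, had no other probe set named for it, so its difference rests on 1 probe set.

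Stage, dissection and RNA handling were read from 28 gene lists, 1 probe set per gene, the brightest. None of their genes passed limma's adjusted threshold of 0.05, so the values below are descriptions, set against 9840 genes with a median difference of 0.06, of which 61.8% were higher. An unadjusted p under 0.05 was reached by 11.8% of those genes as higher and by 5.18% as lower. The part that stage, dissection or handling had in the members' differences was not tested.

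For stage, 6 lists held 101 tested genes with a median of 0.04, and 9.9% had an unadjusted p under 0.05 as higher and 4.95% as lower, close to the background. The lower share includes Slbp, a member that this same contrast chose. Genes of postmitotic neurons, which appear as neurogenesis begins, had a median of 0.06 (19 tested). Elavl3, a neuronal RNA-binding protein, was lower (difference -0.68, SE 0.24), by a probe set whose name marks it as open to cross-hybridisation. Celf3 was lower too (-0.55, SE 0.06), at low levels of 3.70 to 4.31. Reln, the secreted protein of the first cortical neurons, was higher (0.35, SE 0.09). Proneural genes had a median of 0.12 (10 tested), with Sox11, a factor of new neurons, reading 10.89 and 10.78 against 11.44 and 11.75 (0.76, SE 0.14).

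Early embryo and neural plate genes had a median of 0.13 (13 tested). Hmga2, a chromatin protein of young progenitors, differed by 0.73 (SE 0.32), Sall4 by 0.51 (SE 0.33) and Hmga1 by 0.42 (SE 0.09). Later progenitor genes had a median of 0.07 (16 tested), and Ptn, a secreted growth factor of radial glia, read 12.99 and 13.06 in the replicate 1 arrays against 12.23 in both replicate 2 arrays (difference -0.79, SE 0.06). Id4, an inhibitor of bHLH factors, was also lower (-0.55, SE 0.21), while Nfib, near the dim level, was higher (0.49, SE 0.28). Of the later genes 9 were higher and 6 lower, and of the early genes 9 were higher and 3 lower, the lowest at -0.15. The lists of earlier and later stages thus held genes on both sides.

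Cell cycle lists stayed near 0, with medians of 0.01 in S phase (20 tested) and -0.02 in mitosis (23 tested). Slbp is a member and stands far from the others of the S phase list. Next to it was Ccne2, a cyclin of S phase entry, with 11.31 and 11.18 against 10.60 and 10.57 (difference -0.66, SE 0.07). Its relative Ccne1 went the other way (0.39, SE 0.09). In mitosis Ccna2, a cyclin of S phase and mitosis, had 13.63 and 13.61 against 13.10 and 13.16 (difference -0.50, SE 0.06), and the other 22 genes stood between -0.24 and 0.27.

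For dissection, 11 lists held 107 tested genes with a median of 0.06, and 7.48% were higher and 2.8% lower at an unadjusted p under 0.05. Apart from these, the list of telencephalic neuroepithelium had a median of 0.08 (18 tested), with 11 genes higher and 7 lower. In it Otx1 differed by 0.77 (SE 0.28), Sox1 by 0.53 (SE 0.16) and Nr2f1 by -0.41 (SE 0.06). The list of diencephalon, midbrain and hindbrain had a median of 0.40, from 7 tested genes of 20 on the array, 5 higher and 2 lower. The other 13 were dim, En2, Pax2, Wnt1 and Gbx2 among them. Foxa2, a floor plate factor, read 4.79 and 4.11 against 6.11 and 4.60 (0.90, SE 0.65), with replicates that overlap across genotypes. Shh, the ventral midline signal, read 7.76 and 7.97 against 8.28 and 8.55 (0.55, SE 0.14), and Fgf17, a signal of the anterior and midbrain borders, differed by 0.44 (SE 0.17). Nkx2-2 differed by 0.40 (SE 0.13), Tcf7l2 by 0.09 (SE 0.15) and Irx3 by -0.14 (SE 0.41). All 14 Hox genes of hindbrain and trunk on the array were dim. The summed linear level of the diencephalon, midbrain and hindbrain list, as log2, was 12 and 11.8 in the replicate 1 arrays and 12.2 and 12 in the replicate 2 arrays.

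The other tissues near the telencephalon read as follows. Endothelium had a median of 0.15, with 17 of 22 genes higher, and its summed level was 12.5 and 12.7 against 12.6 and 12.8. Tie1, an endothelial receptor kinase, read 5.63 and 5.70 against 6.26 and 6.44 (0.68, SE 0.09). Eng differed by 0.54 (SE 0.22) and Flt1 by 0.49 (SE 0.23). Sox7, an endothelial transcription factor, differed by -0.34 (SE 0.22). Head mesenchyme and neural crest had a median of 0.07 (19 tested). Foxc1, a mesenchymal forkhead factor, was higher by 0.89 (SE 0.21) and Col1a2 by 0.67 (SE 0.16), and Msx1 lower (-0.69, SE 0.17), so this list too went both ways, with summed levels of 13.7 and 13.5 against 13.6 and 13.7. Red cell genes had a median of 0.05 (20 tested) with summed levels of 16.8 and 17.0 against 16.8 and 16.9. Hbe2, an embryonic globin, differed by -0.77 (SE 0.42) and Rhag, a red cell membrane protein, by 0.62 (SE 0.34). Surface ectoderm had -0.05, eye field 0.02, macrophages and leukocytes -0.06 with 17 of 23 genes dim, muscle 0.01 with 15 of 21 dim, yolk sac and liver 0.14 with 18 of 21 dim, and placenta -0.15 with 16 of 18 dim.

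The sex of the embryos is not labelled. Eif2s3y, a translation factor gene of the Y chromosome, read 11.02 and 9.73 in wild-type arrays 1 and 2, and 11.80 and 11.53 in mutant arrays 1 and 2 (difference -0.78, SE 0.77). Uty, another Y-linked gene, read 10.26 and 10.59 in the replicate 1 arrays and 9.80 and 9.73 in the replicate 2 arrays (difference -0.66, SE 0.14). Xist, the RNA of X inactivation, read 11.97 and 12.02 against 12.73 and 11.77 (0.26, SE 0.38). Male and female transcripts were thus on every array. Uty was lower in both replicate 2 arrays, while Xist was higher in wild-type array 2 alone. Without wild-type array 2, the fit set mutant array 2 against both replicate 1 arrays and gave 0.12 for Eif2s3y and -0.22 for Xist. These values include the genotype difference, and within the mutant Eif2s3y was lower in array 2, 11.53 against 11.80.

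For handling, 9 lists held 178 tested genes with a median of 0.05, and 6.74% were higher and 3.93% lower at an unadjusted p under 0.05, below the background in both directions. Immediate early genes had a median of 0.05 (22 tested), and 15 of 37 on the array were dim, Fos, Fosb, Junb and Nr4a1 among them. Klf2, which is on this list, is represented there by its brightest probe set at -0.30 and not by the member. Heat shock genes had a median of 0.10 (14 tested), with Chordc1 at -0.43 (SE 0.14) and Hspa4 at 0.41 (SE 0.22). Amino acid and unfolded protein stress genes had 0.12, with 24 of 31 genes higher, led by Slc7a5, a large amino acid transporter, which read 7.23 and 7.49 against 7.94 and 8.25 (0.73, SE 0.17), and by Sesn2, a stress-induced inhibitor of mTORC1 (0.43, SE 0.09). Hypoxia and glycolysis genes had 0.15, with 22 of 30 higher, Pfkl at 0.58 (SE 0.28), Hk2 at 0.53 (SE 0.15) and Aldoa at 0.40 (SE 0.05). These shares of higher genes stand beside 61.8% over all genes.

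Cytosolic ribosomal protein genes had a median of -0.02 and oxidative phosphorylation genes 0.00, with Cox5a of the latter reading 7.39 and 7.54 against 6.84 and 6.94 (difference -0.57, SE 0.08). Splicing factors had -0.04, with Tra2a at -0.48 (SE 0.12) and Hnrnpd at 0.45 (SE 0.11). Interferon response genes had 0.00 with 18 of 23 dim, and histone genes 0.19 from 3 tested genes. The direction of a small median depended on the scaling: 18 of 27 lists with tested genes had a median above 0 as deposited, 13 after quantile normalization and 6 after median centring. The list of diencephalon, midbrain and hindbrain stayed at 0.32 and 0.29, while endothelium stood at 0.05 and 0.03 and hypoxia and glycolysis at 0.07 and 0.03, in the same order.

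**Figure D4:**
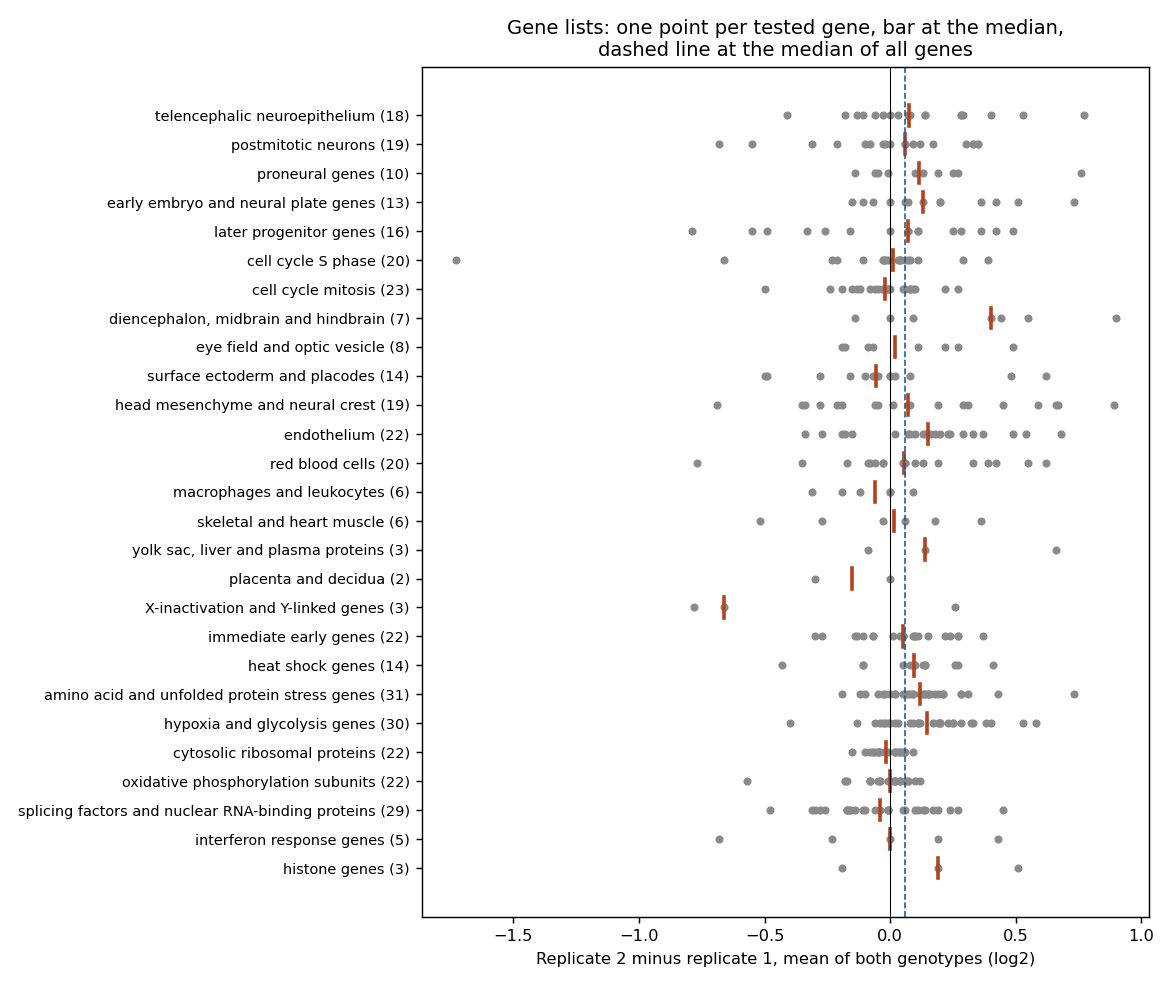
Replicate 2 minus replicate 1 (log2, mean of both genotypes) of each tested gene in 27 lists, with the number of genes in brackets. The red bar is the list's median, and the blue dashed line is the median of all 9840 genes (0.06). Most bars lie near that line, Slbp stands at the far left of the S phase list, and bars near 0 change sign with the scaling of the arrays.

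Control probe sets on the arrays differed between the replicates as well. Poly-A transcripts of bacterial genes (dap, lys, phe and thr), which in the standard procedure are added to the RNA before labelling, were lower in both replicate 2 arrays than in both replicate 1 arrays for 17 of 23 probe sets and higher for 0, with a median of -0.40 and a range from -0.71 to 0.01. Hybridisation controls, which are added after labelling, overlapped between replicates for 15 of 18, with a median of 0.04. The part of this in the members' differences was not tested. No control reached 0.8 in all 4 pairings.

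Probe sets against different regions of 1 gene bear on RNA integrity. Beta-actin differed by 0.06 at its 3' end, 0.17 in the middle and 0.16 at its 5' end, and Gapdh by 0.02, 0.01 and -0.02. Hexokinase was higher in replicate 2 at all 3 regions, by 0.33 at the 3' end, 0.71 in the middle and 0.49 at the 5' end. The 5S ribosomal RNA probe set, which reads an RNA with no poly-A tail, had 7.99 and 7.89 in the replicate 1 arrays and 8.62 and 9.11 in the replicate 2 arrays. A B1 repeat probe set had 7.15 and 7.25 against 6.67 and 6.18. As means of both genotypes, the 5' ends thus differed by 0.16, -0.02 and 0.49, and the Gapdh 5' end differed by 0.02 in wild type and by -0.06 in the mutant.

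**Figure D5:**
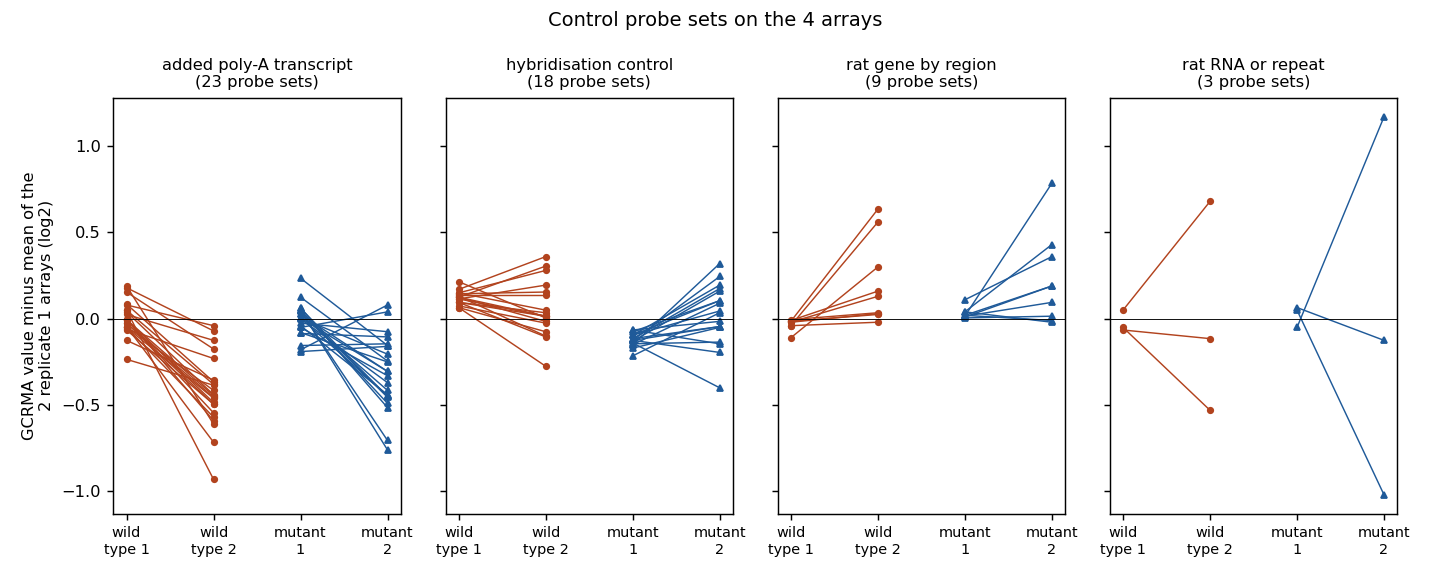
GCRMA values of control probe sets on the 4 arrays, each minus its mean over both replicate 1 arrays (log2). Each line joins replicate 1 and 2 of a genotype for 1 probe set, circles wild type and triangles mutant. The added poly-A transcripts are lower in replicate 2 for most probe sets (median -0.40), while the hybridisation controls scatter around 0.04.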

How the data were processed

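Total RNA of rat telencephalon from 2 wild-type and 2 rSey2/rSey2 samples was labelled with biotin, 10 µg each, per the labels' protocols. The deposited table holds a log2 value per probe set. The submitters' processing notes name GCRMA as the tool the authors used. Its version is not given in the sources used here. The values run from 2.07 to 16.13, a range that fits log2 intensities. Arrays give no read depth, and their number limits the precision. The values were not normalized again.

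Of 31099 probe sets, 57 controls were described apart. Those with a mean under the 40th percentile (3.21) were left out as dim, 12417 in all, and 18625 were tested. limma 3.58.1 in R 4.3.3 fitted replicate number (4 arrays, both genotypes) and, separately, genotype, each as the only term, with lmFit and eBayes and Benjamini-Hochberg adjustment over all 18625 at 0.05. The replicate fit was tested on simulated data. That simulation gave every probe set the same spread and no genotype difference, so its outcome does not carry over to calls on these arrays. SE is limma's moderated standard error, with 2 arrays in each group. In the replicate fit those 2 arrays differ in genotype, so its SE and p-values include the genotype difference. An exact permutation test of 2 arrays against 2 cannot reach 0.05, so none was run.

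Names come from the platform annotation, 1 symbol per probe set, and 20758 of 20826 named probe sets matched the RefSeq table by Entrez identifier, with 0 symbols changed. Members and lists were chosen with earlier results of these data known. Members are named with all 4 values where they rank in the first 15 of their direction, where their gene has another probe set, or where they are on a list, and otherwise by range or as examples chosen after their values were seen. From the lists, up to 3 genes with the largest differences are named. A few further ones, such as Sox7, Tcf7l2 and Irx3, were added after their values were seen. Lists use each gene's brightest probe set. Promoters are RefSeq's (GRCr8). Alternatives were another scaling, filter, pseudocount (16), difference (0.6 and 1), term, and leaving out each array.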

Additional observations from a re-analysis of the deposited data

How the results depend on the processing

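The 69 higher and 33 lower members became 42 and 56 after quantile normalization and 40 and 71 after median centring. With a pseudocount of 16 there were 23 higher members and 22 lower. At a difference of at least 0.6 there were 185 higher and 124 lower, and at 1 there were 27 and 13. Leaving out each array in turn, which leaves 2 pairings to clear, gave 168 to 304 higher and 84 to 142 lower. Without a filter 69 and 34 met the rule, and the stricter filters gave 48 to 62 and 26 to 32. No member changed sign under any of these. The rule fixed that beforehand for the filters, median centring, the pseudocount, the other differences and the left-out arrays, so nothing is read from it.

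The replicate fit called 0 probe sets, and 3 without a filter, where 31042 were tested. The genotype fit called 0, and 2 after quantile normalization and after median centring. Of the 110 other probe sets, 69 lay in the direction of the member, and 62 to 74 did under the alternatives. The totals differ, since the stricter filters leave fewer probe sets. A count of 72 was over every other probe set of the genes, dim ones included, an alternative chosen after seeing the data. Single readings near 0 changed sign. Lrrfip1 1389913_at was -0.08 after quantile normalization and -0.06 after median centring, Crebbp 1382264_at -0.02 after median centring, and Slbp 1395322_at -0.12 and -0.10. Leaving out each array in turn gave -0.03 to 0.14 for that Lrrfip1 set, -0.04 to 0.24 for Crebbp and -0.25 to 0.27 for Slbp. For Cep295 1398460_at it gave -0.44 to 0.04, for Eif2s3y -1.68 to 0.12 and for Xist -0.22 to 0.74. Each such fit sets a single array against arrays of both genotypes, so a genotype difference enters these values.

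Same-numbered arrays are not paired by the labels. The replicate differences of wild type and mutant correlated at r = 0.43 over 18625 probe sets (0.40 without the members). The replicate block in the genotype fit gave 0 calls, with 1194 at an unadjusted p under 0.05 against 680 without the block. Genotype as a second term in the replicate fit also gave 0 calls. At the lowest value, 2.07, no difference can be measured.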
